A study of Rattus norvegicus with 12 samples.

Results

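The genes described here encode proteins of the mitochondrial ribosome. They were taken as every gene whose name on the array begins with Mrpl or Mrps followed by a digit, with all of its non-control probes. This gave 70 genes and 81 probes, of 30367 probes in all. Of these, 78 probes of 69 genes passed the filter on dim probes and had at least 3 values in each group. Members made up 69 of the 18688 genes tested on the array. Mrps28 was not well above background in any sample and was not tested. Each of the 69 tested members was well above background in all 12 samples.

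Total RNA was taken at postnatal day 15 from female Sprague-Dawley rats (prefrontal cortex); the field for developmental stage disagrees with the other labels on this age. Dams received 2 injections on gestational day 15, either saline or betamethasone (a synthetic glucocorticoid) at 0.4 mg/kg each. On postnatal day 14 the pups received saline or ketamine (an NMDA receptor antagonist) at 35 mg/kg. Control rats had saline at both times, betamethasone rats had betamethasone then saline, and betamethasone-ketamine rats had betamethasone then ketamine, with 4 animals in each group. The labels name infantile spasms on postnatal day 14, without giving which groups showed them, and no group received ketamine after prenatal saline.

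Mitochondria keep their own ribosome, which makes only the few membrane proteins of the respiratory chain and ATP synthase that mitochondrial DNA encodes. Its RNA comes from mitochondrial DNA, but all of its proteins are encoded in the nucleus, made in the cytosol and imported. Some have counterparts in the bacterial ribosome; others arose in the mitochondrial lineage and cover much of the particle's surface. Of the tested members, 44 belong to the large subunit and 23 to the small subunit. Mrps36 keeps a ribosomal name in the array's annotation but encodes a part of the 2-oxoglutarate dehydrogenase complex. Mrps21l, named for its likeness to Mrps21, was put in neither subunit.

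The array reads each gene through oligonucleotides of 60 bases, so each value below is that of 1 probe. The first 30 bases are shown for the gene that passed the test, Mrps7, and for the genes whose probes gave different answers, Mrpl50 and Mrpl35. They run 5′ to 3′ as listed in the files, with positions on rn4. Capitals in the Mrps7 probe mark a repeat of 6 letters.
Mrps7, chr10:105686811-105686870, plus strand: ggtatACACATggtatacagACACATgtgc
Mrpl50, tested probe, chr5:66262841-66262900, minus strand: tgatgaactcattgctagtaatttacctcc
Mrpl50, other probe, chr5:66261569-66261628, minus strand: tcctctgtccttttttctgtgctatctagg
Mrpl35, tested probe, chr4:105106986-105111007, minus strand: ggaatattacgtcccctcaatgtctcggtt
Mrpl35, other probe, chr4:105103419-105103478, minus strand: gttcatgacagtcatcactagtgcctgggt
The repeat occurs 3 times in the whole Mrps7 probe, a number reached by 0.003% of all probes, this probe included. The repeat was picked from the letters of this probe, so that share was bound to be low. That probe also had the fewest distinct 3-letter words of the 81 member probes: 25, against a median of 36 over members and over all probes. It shared a run of 16 bases, on either strand, with 1 probe of another gene, as did 4 other member probes. No member probe shared such a run with more than 1. Whether such sequence affects the signal of the Mrps7 probe was not tested.

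Each of the 6 arrays held 2 animals of 1 group, with odd replicates labelled in Cy3 and even ones in Cy5. Control arrays were alone on their slide, and in comparisons with control the slide therefore cannot be told apart from the group. Betamethasone and betamethasone-ketamine arrays shared a slide. Between 71.4% and 81.5% of non-control spots were well above background in each sample. On the array of betamethasone-ketamine replicates 1 and 2, 5.48% of spots lay in areas where at least 15% of spots departed from the other arrays by over 1 on the log2 scale, called damaged here. On the other arrays this share was 0% to 1.29%. Nothing in the labels gives litters, so p-values rest on the spread between these animals as deposited. They also rest on 1 array correlation (0.5627) shared by all genes. With array means as replicates, the genes with an adjusted p under 0.05 after betamethasone fell from 46 to 3 (limma). Of the cell-type marker lists, those of blood and oligodendrocytes had the medians farthest from 0 after betamethasone. The 2 blood genes had a median log2 change of 0.652 after betamethasone and 0.388 after betamethasone and ketamine, with 0 of 2 past the test; their mean log2 level was 13.455 to 13.967 in control samples, 13.463 to 15.358 in betamethasone samples and 12.105 to 14.623 in betamethasone-ketamine samples. The 6 oligodendrocyte genes had a median log2 change of -0.576 after betamethasone and -0.483 after betamethasone and ketamine, with 0 of 6 past the test. The mean log2 level over that list was 11.06 to 11.73 in control samples, 10.204 to 11.245 in betamethasone samples and 10.60 to 11.51 in betamethasone-ketamine samples. Neuronal markers changed by a median of 0.086 and 0.259, also with none past the test. All 6 oligodendrocyte and 7 neuronal markers on the array were above background in every sample. The part of these lists in the results below was not tested, and in bulk tissue fewer cells of a type and less RNA per cell cannot be told apart.

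The first comparison set prenatal betamethasone against prenatal saline in rats that all had saline on postnatal day 14. After betamethasone, 1 of the 69 members passed an adjusted p of 0.05 in the limma fit, and it was higher: Mrps7, a small subunit protein that binds the head of the ribosomal RNA. Over all tested genes 0.246% passed. Of all 69 members, Mrps7 included, 41 were higher and 28 lower, with a median log2 change of 0.03, equal to the 0.03 of all tested genes. The share of higher genes was 59.4% among members and 56% over all genes, but 85.5% and 55.6% with arrays centred on their median intensity, 65.2% and 33.7% with 75th percentile scaling, and 0% and 0.63% in the deposited value table centred on its column medians. By subunit, the median was 0.03 for 44 large subunit genes and 0.06 for 23 small subunit genes.

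For Mrps7, the normalised log2 intensity was 11.66, 11.84, 11.47 and 11.45 in the 4 control samples. It was 12.32, 12.52, 12.27 and 12.39 in betamethasone samples and 12.27, 12.48, 12.15 and 12.39 in betamethasone-ketamine samples. All 8 samples exposed to betamethasone lay above all 4 control samples, and the exposed groups overlapped each other. After betamethasone Mrps7 rose by 0.77 (SE 0.11; 95% interval 0.52 to 1.02), a 1.71-fold difference (adjusted p = 0.0256, limma), and ranked 27th of the 18688 genes by p. In the betamethasone-ketamine group it was 0.72 higher than control (SE 0.11; 1.64-fold; adjusted p = 0.0605). Between the exposed groups the difference was -0.05 (adjusted p = 0.954, limma). Its single spot lay in no damaged area on any array.

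**Figure D1:**
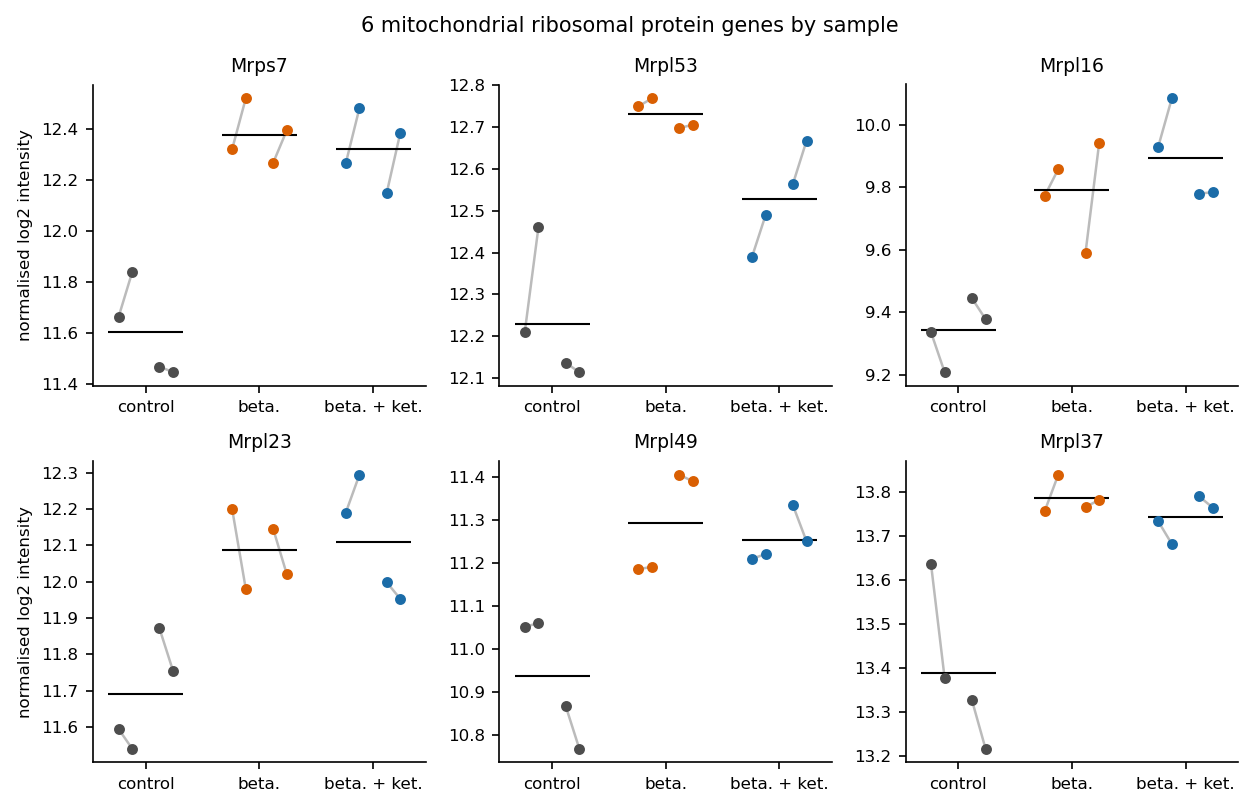
Normalised log2 intensity (y axis) of 6 members in each sample, by group (beta., betamethasone; ket., ketamine); points are animals, grey lines join the 2 animals of 1 array, and black lines are group means. The Mrps7 values of exposed samples run from 12.15 to 12.52, all above the highest control value of 11.84.

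The Mrps7 call did not hold in every subset of samples. Its adjusted p ranged from 0.0226 to 0.104 when 1 sample was left out, and it was lost without control replicate 1 or 3 and without any 1 of the 4 betamethasone samples (0.0615 to 0.104). With the 2 arrays of a group as the replicates it was 0.341, and without either betamethasone array it was 0.308 and 0.329. The call was also lost with Feature Extraction's processed signals (0.0569), with arrays centred on median intensity (0.82), with 75th percentile scaling (0.816) and with the value table re-centred on shared genes, a setting chosen after seeing the data (0.128). Over all settings tried the log2 change was between 0.62 and 1.11, except in the deposited value table centred on its column medians, in which it was -0.31 while all tested genes had a median of -1.11.

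4 mitochondria-specific proteins of the large subunit were among the members with the next smallest p after betamethasone, and none of them passed the test. Mrpl53 was 12.21, 12.46, 12.14 and 12.11 in control samples and 12.75, 12.77, 12.70 and 12.71 in betamethasone samples, without overlap (log2 change 0.50, SE 0.11, adjusted p = 0.12, limma). Its probe was printed at 10 spots, with a spot in a damaged area on the array of betamethasone-ketamine replicates 1 and 2. The SD between its single spots within a sample had a median of 0.28. Between animals, whose values average these spots, the SD was 0.03 in betamethasone samples, with a median of 0.12 over the 3 groups. Mrpl49 was 0.36 higher (SE 0.10, adjusted p = 0.223), Mrpl37 0.40 higher (SE 0.12, adjusted p = 0.224) and Mrpl51 0.40 higher (SE 0.12, adjusted p = 0.24), and in each the groups did not overlap. Mrpl37 was 13.64, 13.38, 13.33 and 13.22 in control samples and 13.76, 13.84, 13.77 and 13.78 in betamethasone samples. Control replicate 1 lay nearest to the betamethasone samples.

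Among large subunit proteins with a bacterial counterpart, Mrpl23, which lines the exit of the peptide tunnel, was 0.40 higher (SE 0.12, adjusted p = 0.249). Mrpl16 was 0.45 higher (SE 0.14, adjusted p = 0.255). Mrpl12, the protein of the flexible stalk that recruits translation factors, read 14.34, 14.20, 14.45 and 14.33 in control samples and 14.68, 14.72, 14.66 and 14.71 in betamethasone samples (log2 change 0.36, SE 0.12, adjusted p = 0.266). Its 4 betamethasone values lay within 0.06 of each other and above every control value. Mrpl35 went the other way: 11.05, 11.04, 10.96 and 11.12 in control samples and 10.75, 10.71, 10.704 and 10.73 in betamethasone samples (log2 change -0.32, SE 0.10, adjusted p = 0.238). In the small subunit, Mrps5 was 0.32 higher (SE 0.10, adjusted p = 0.241) on a probe of 10 spots, also with a spot in a damaged area of that array. Mrps11, a small subunit protein of the decoding platform, was 0.31 higher (SE 0.13, adjusted p = 0.388).

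Below the adjusted threshold, 13 of 69 members (18.8%) had an unadjusted p under 0.05 after betamethasone, against 11.6% of all tested genes. Of those 13, 12 were higher and 1, Mrpl35, was lower. The groups did not overlap for 18 members (26.1%), 15 of them higher, against 18% of all genes. By kind, the unadjusted threshold was passed by 4 of 26 large subunit genes with a bacterial counterpart and 6 of 18 mitochondria-specific ones. It was passed by 3 of 15 small subunit genes with a counterpart and 0 of 8 mitochondria-specific ones. These shares have no test of their own here.

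**Figure D2:**
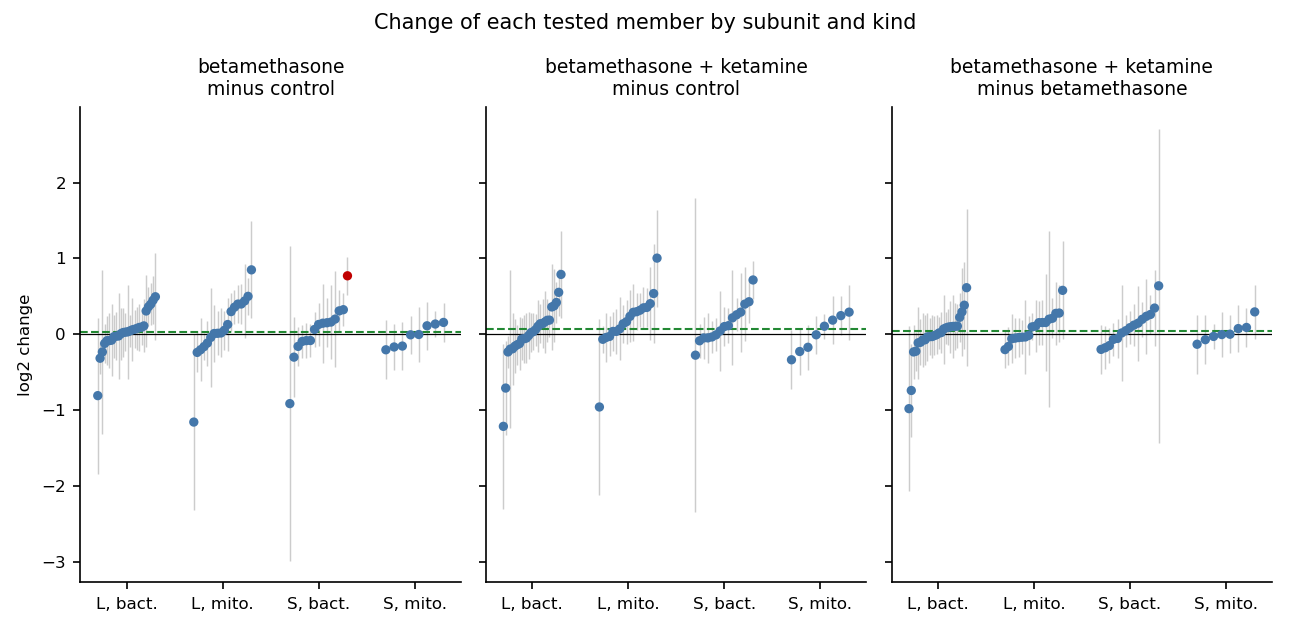
Log2 change (y axis) of 67 tested members in each comparison, by subunit (L, large; S, small) and kind (bact., with a bacterial counterpart; mito., mitochondria-specific); bars are 95% intervals, the dashed line is the median of all tested genes, and red marks an adjusted p under 0.05. The members scatter around the median of all genes, and the red point is Mrps7 at 0.77 after betamethasone.

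In the betamethasone-ketamine group, compared with the same control samples, none of the 69 members passed an adjusted p of 0.05 in limma, against 0.091% of all genes (17 genes). Of the members, 42 were higher and 27 lower, with a median log2 change of 0.10, against 0.07 for all genes. The share higher was 60.9%, against 63.8% of all genes; in the same 3 alternative scalings it was 40.6% against 53.8%, 65.2% against 76.8%, and 0% against 0.616%. An unadjusted p under 0.05 was reached by 16 members (23.2%; 12 higher, 4 lower), against 14.1% of all genes. The groups did not overlap for 15 members (21.7%), against 15.8% of all genes. By kind, 14 of 18 mitochondria-specific large subunit genes were higher, with a median of 0.20, and 4 of 8 mitochondria-specific small subunit genes, with a median of 0.05. Of those with a bacterial counterpart, 14 of 26 large subunit genes were higher, with a median of 0.03, and 9 of 15 small subunit genes, with a median of 0.10.

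For members named above, the values in this comparison were 0.55 for Mrpl16 (SE 0.14, adjusted p = 0.185) and 0.42 for Mrpl23 (SE 0.12, adjusted p = 0.246). They were 0.32 for Mrpl49, 0.35 for Mrpl37, 0.35 for Mrpl51 and 0.30 for Mrpl53, with adjusted p from 0.276 to 0.313. Mrps5 was at 0.26 (adjusted p = 0.321) and Mrpl35 at -0.23 (adjusted p = 0.328). Mrpl12 was 14.26, 14.36, 14.62 and 14.64, overlapping control, at 0.14 (adjusted p = 0.596), against 0.36 after betamethasone. Because the control samples are shared, the like sign of these values in both comparisons is not independent. Mrps11 was 10.56, 10.29, 10.65 and 10.41 in control samples and 11.11, 11.04, 10.73 and 10.75 in betamethasone-ketamine samples (log2 change 0.43, SE 0.13, adjusted p = 0.245). Mrpl15 was 0.79 higher (SE 0.26, adjusted p = 0.284), with groups that overlapped. It read 10.50 and 10.43 in betamethasone-ketamine replicates 1 and 2 and 9.91 and 9.80 in replicates 3 and 4.

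The last comparison set ketamine against saline in rats that all had prenatal betamethasone, on arrays of 1 slide. No member passed an adjusted p of 0.05 in limma, and neither did any other gene (0% of 18688). An unadjusted p under 0.05 was reached by 2 members (2.9%), against 3.23% of all genes, and both were lower. The groups did not overlap for 5 members (7.25%), against 4.07% of all genes. Members were 38 higher and 31 lower with a median of 0.02, against 0.05 for all genes. With arrays centred on their median intensity the median was -0.40 and 13% of members were higher, against -0.10 and 43.2% of all genes; with 75th percentile scaling 52.2% of members and 75.5% of all genes were higher. The 95% interval of a member's change, not adjusted for the number of genes, reached a median of 0.30 to either side. Larger differences were not called either: members ran from -2.28 to 0.64, with a smallest adjusted p of 0.906 (limma). For Mrps7 itself the interval of the ketamine difference was -0.31 to 0.20.

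The 5 members without overlap were Mrpl43, Mrps30, Mrpl12, Mrpl53 and Mrps16. Mrpl43 was 8.41, 8.46, 8.03 and 8.59 in betamethasone samples and 9.10, 8.80, 9.17 and 8.74 in betamethasone-ketamine samples (log2 change 0.58, SE 0.29, adjusted p = 0.906, limma). Mrps30, a large subunit protein despite its name, was 12.14, 12.07, 11.98 and 12.01 against 12.29, 12.37, 12.18 and 12.19 (log2 change 0.21, SE 0.12). The control samples of Mrps30, from 12.19 to 12.52, lay nearer to the betamethasone-ketamine samples than to the betamethasone samples. Mrpl12 and Mrpl53 lay lower after ketamine, with log2 changes of -0.22 (SE 0.12) and -0.20 (SE 0.11). Mrpl12 read 14.26 and 14.36 in betamethasone-ketamine replicates 1 and 2 and 14.62 and 14.64 in replicates 3 and 4. Its betamethasone samples read 14.66 to 14.72. Mrpl53 read 12.39 and 12.49, then 12.56 and 12.67, in the same order, against 12.70 to 12.77 in betamethasone samples. Mrpl53 and Mrps16 had a spot in a damaged area on the array of replicates 1 and 2. The tested probe of Mrps16 gave -0.15 and its other probe -0.02, with overlap. Mrps21 was at 0.26 and Mrps15 at 0.20, each with overlap. The tested probe of Mrps21 read 8.07 to 8.65 over the 12 samples. A brighter Mrps21 probe, at 12.83 to 13.32, had no value in betamethasone replicates 3 and 4 and was not kept. Mrps31 was at 0.29, also with overlap: it read 11.72 and 11.45 in betamethasone-ketamine replicates 1 and 2 but 11.07 and 10.96 in replicates 3 and 4, against 10.99 to 11.03 in betamethasone samples. Its change was 0.0097 without the array of replicates 1 and 2 and 0.58 without the other, each with the group on 1 array.

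The 2 members with the smallest p after ketamine, Mrpl4 and Mrps36, read low on 1 array. Mrps36 was 8.13 and 8.10 in betamethasone-ketamine replicates 1 and 2, which share an array, but 12.73 and 12.63 in replicates 3 and 4. All 4 betamethasone samples lay between 12.58 and 12.75. Its change of -2.28 (SE 0.99, adjusted p = 0.906) became 0.0001 without that array and -4.56 without the other. Mrpl4, a large subunit protein near the peptide tunnel, was 10.78 and 10.86 in replicates 1 and 2 and 12.00 and 12.02 in replicates 3 and 4. Its change of -0.74 (SE 0.28, adjusted p = 0.906) was -0.15 without the first array and -1.34 without the other. Mrpl10, at the base of the stalk, was 12.76 and 12.91 against 15.01 and 15.10. Its change of -0.98 became 0.13 without that array. The spots of all 3 probes lay in the damaged areas of that array.

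Other members departed on 1 array with no damaged area at their spots; they were chosen after their values were seen. Mrpl52, a mitochondria-specific large subunit protein, was 8.46 and 8.43 in control replicates 1 and 2 but 10.32 and 11.001 in replicates 3 and 4. All 8 exposed samples lay between 8.25 and 8.74. Mrpl22, a protein of the peptide tunnel, was 11.88 and 11.94 in betamethasone replicates 1 and 2 but 9.87 and 10.32 in replicates 3 and 4, and it had no value in betamethasone-ketamine replicate 2. Mrps14 was 7.30 in betamethasone replicate 4 and 10.17 in replicate 3 on the same array, the largest difference between 2 animals of an array among members (2.87). These 3 genes had the widest standard errors among those without a masked spot, and none passed the test in any comparison of the main fit. Without the array of control replicates 1 and 2, Mrpl52 was called in both comparisons with control, which then held replicates 3 and 4 alone.

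**Figure D3:**
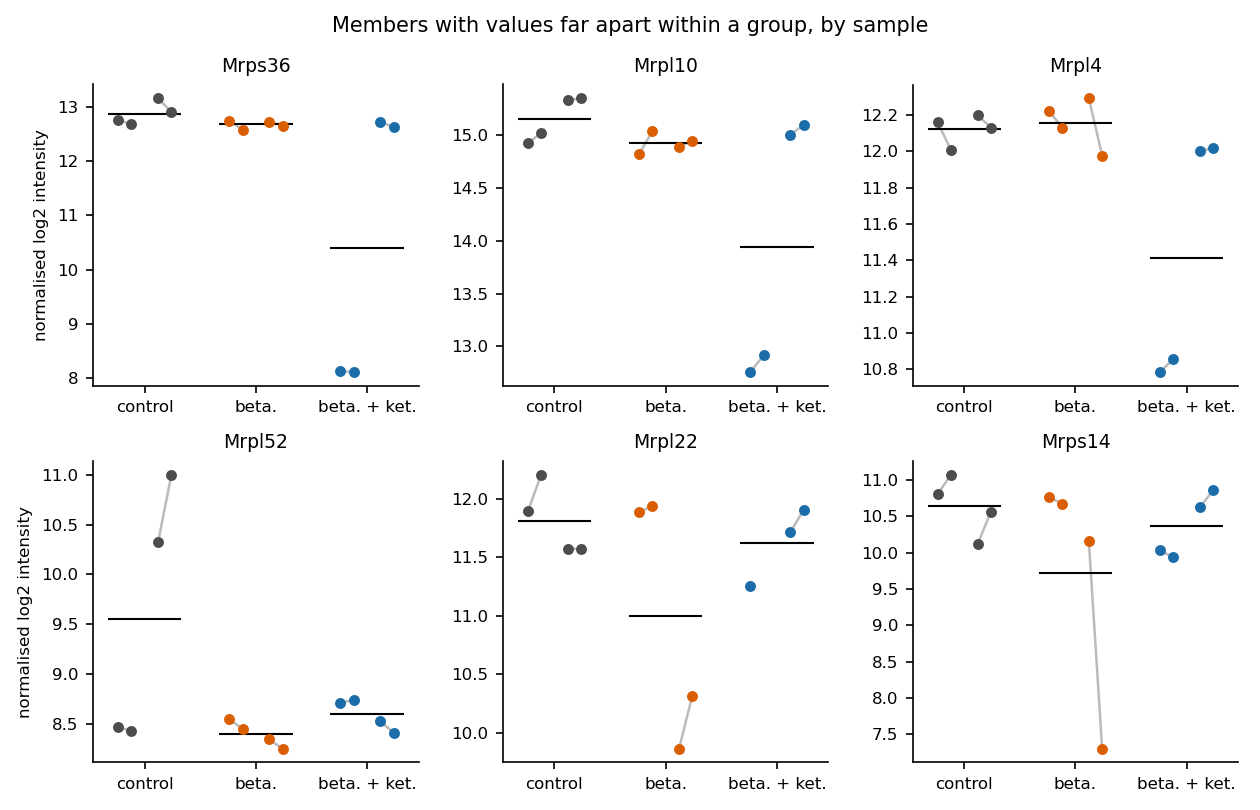
Normalised log2 intensity (y axis) of 6 members whose values lay far apart within a group, by group (beta., betamethasone; ket., ketamine); points are animals, grey lines join the 2 animals of 1 array, and black lines are group means. In 5 of the 6 the low or high values come as a pair from 1 array, and in Mrps14 a single animal reads 7.30.

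The difference between array means was larger than that between the animals of an array in 2 of the 3 groups. The 2 measures are not alike, since array means average 2 animals. The animals of an array also carry different dyes, which loess scaled to each other. Over the members, the median difference between the animals of an array was 0.15 in control, 0.07 in betamethasone and 0.08 in betamethasone-ketamine samples. The median difference between the array means was 0.19, 0.05 and 0.24 in that order. Over all tested genes it was 0.15, 0.06 and 0.20, with 0.12, 0.12 and 0.07 within arrays. The SD of a member within a group had a median of 0.16, 0.09 and 0.16 in the order control, betamethasone and betamethasone-ketamine, against 0.15, 0.10 and 0.14 over all genes. In the main normalisation the members' median deviation from each gene's own mean lay between -0.14 (control replicate 4) and 0.08 (betamethasone-ketamine replicate 2). Over all tested genes it was -0.02 and 0.09 in these 2 samples.

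**Figure D4:**
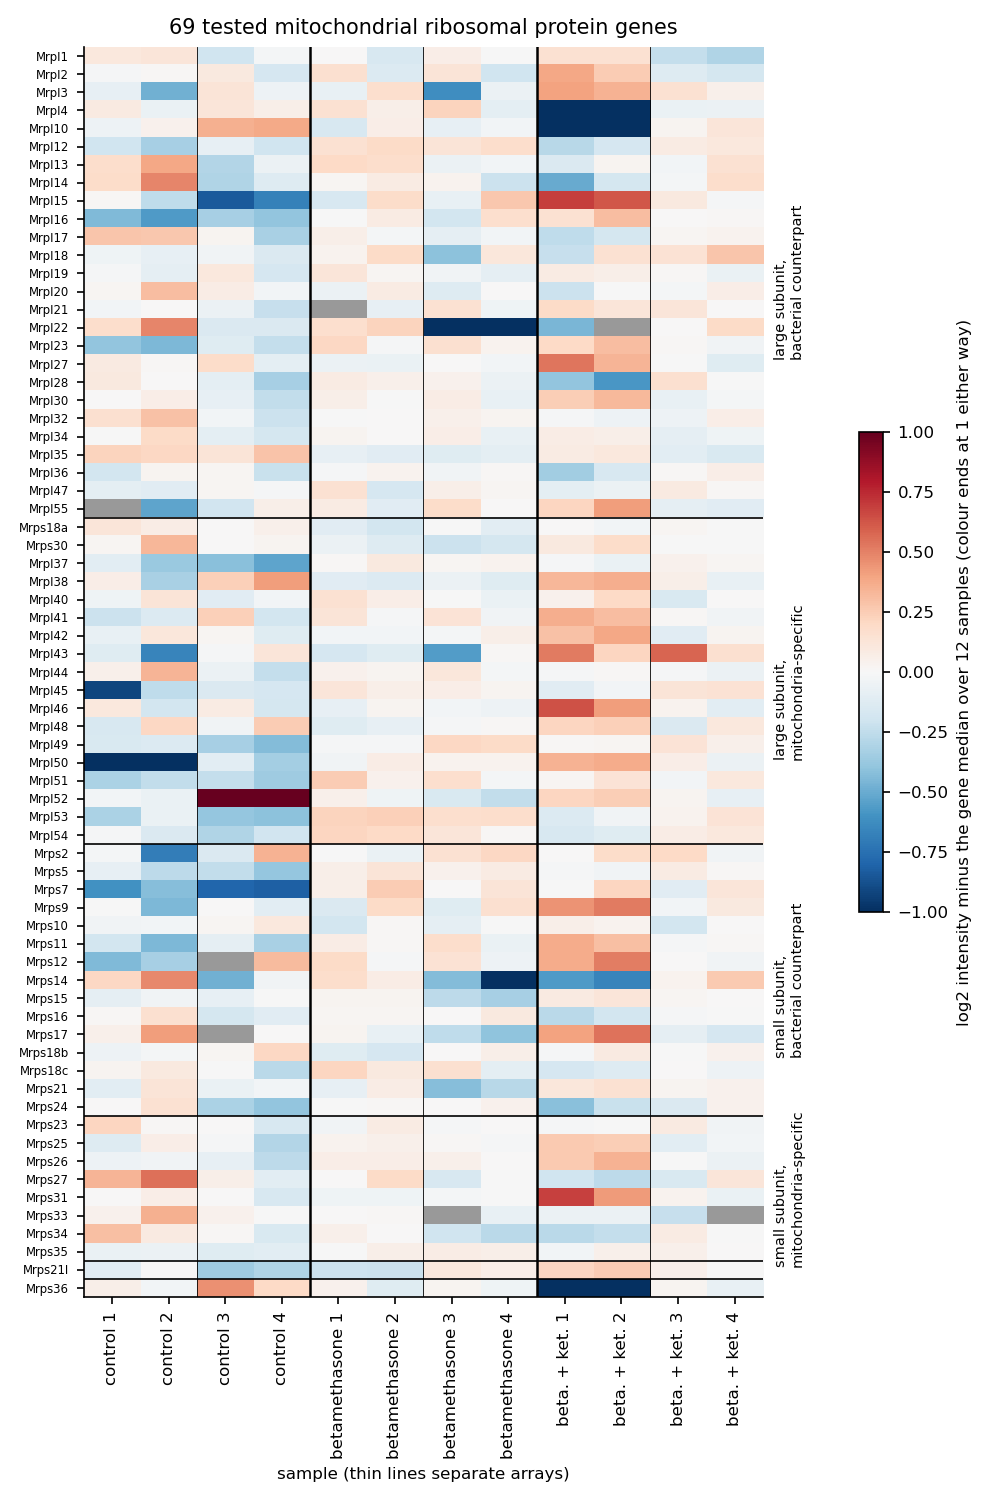
Log2 intensity of the 69 tested members (rows, by subunit and kind) in the 12 samples (columns; beta., betamethasone; ket., ketamine), as the difference from each gene's median over samples; grey marks a missing value, thick lines separate groups and thin lines arrays. Mrps7 is low in the 4 control samples, while Mrpl4, Mrpl10 and Mrps36 are low on the array of betamethasone-ketamine replicates 1 and 2.

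Of the members, 11 had 2 probes, and for 9 of these genes both were kept. After betamethasone the probes differed in sign for 1 gene, Mrpl35; against control the betamethasone-ketamine group gave opposite signs for 5 of 9, and against betamethasone for 3 of 9. The median gap between the probes' log2 changes was 0.17, 0.25 and 0.15 in that order. Mrpl50, a mitochondria-specific large subunit protein, had the widest gap against control. Its tested probe read 8.02 and 8.02 in control replicates 1 and 2, 9.34 and 9.11 in replicates 3 and 4, and 9.39 to 9.81 in the exposed samples. That gave changes of 0.85 (SE 0.29, adjusted p = 0.292) and 1.00 (SE 0.29, adjusted p = 0.235). Its other probe, above background in 10 of 12 samples and in a damaged area on 1 array, stayed between 7.37 and 7.82 and gave 0.04 and -0.09. That probe lay near the floor, where a change may not show: the Mrps28 probe, above background in no sample, read 7.11 to 7.34. For Mrpl10 the probes gave -0.23 and -0.98 after betamethasone; the second probe read 8.70 and 8.41 in control replicates 1 and 2 but 11.04 and 11.80 in replicates 3 and 4, where its spot lay in a damaged area. For Mrpl17 the probes gave -0.16 and 0.38 in the betamethasone-ketamine group against control. For Mrpl35 the tested probe gave -0.32 after betamethasone and the other probe 0.01.

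The 2 probes overlap in letters in 2 of the 11 genes. Those of Mrpl41 share 44 bases with 1 difference, printed in capitals in the stretch below.
Mrpl41, tested probe, chr3:5120436-5120495, minus strand: ctgttccaattgtatccCaagaatttccca
Mrpl41, other probe, chr3:5120420-5120479, minus strand: ctgttccaattgtatccTaagaatttccca
Across the 12 samples these probes had a Pearson correlation of 0.877, as a description over samples that share arrays in pairs. They gave 0.13 and 0.04 after betamethasone and 0.24 and 0.12 for betamethasone-ketamine against control. The probes of Mrpl54, which share 41 bases with 3 differences, correlated at 0.456 over 11 samples. For the 7 genes whose kept probes do not overlap, the correlation ran from -0.685 (Mrpl17, 10 samples) to 0.386 (Mrpl2).

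**Figure D5:**
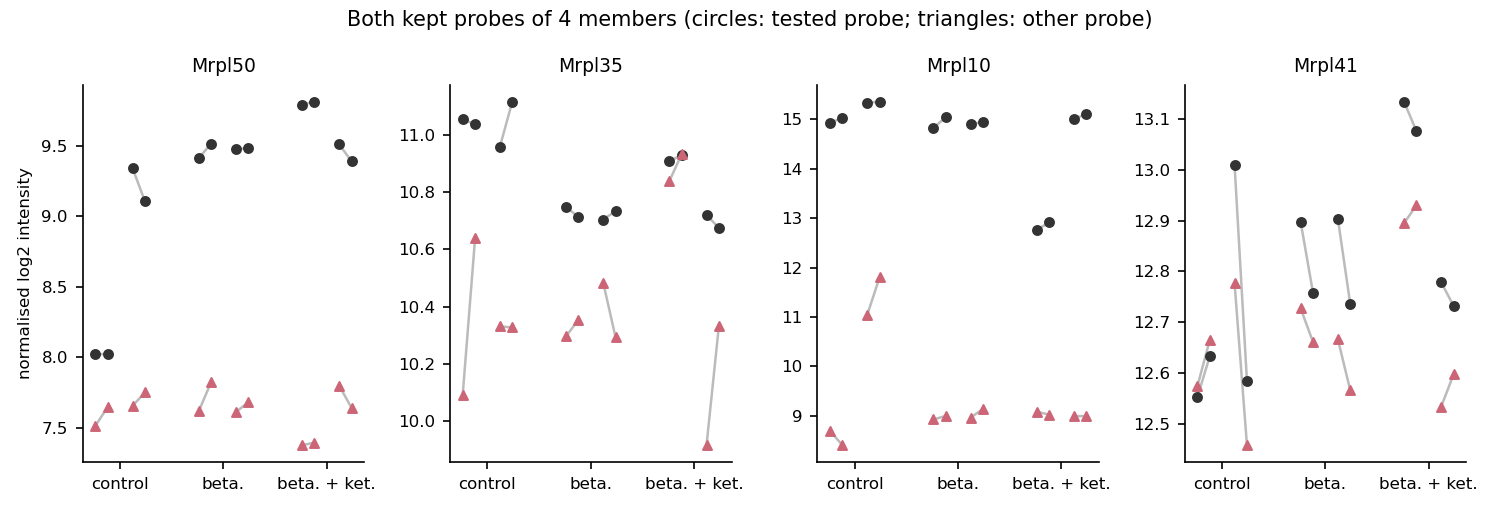
Normalised log2 intensity (y axis) of both kept probes of 4 members by group (beta., betamethasone; ket., ketamine); circles are the tested probe, triangles the other, and grey lines join the animals of 1 array. The probes of Mrpl41 mostly move together (correlation 0.877). The tested probe of Mrpl50 is low in control replicates 1 and 2, and its other probe stays near the floor in all samples.

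RefSeq promoter windows on the GRCr8 build, from 250 bases before to 50 after a gene's start, were at hand for 55 of the 70 members. A set of 9 motifs was searched, and those given here, with their grouping, were chosen after the shares were seen. Nuclear genes for mitochondrial proteins are known for sites of ETS-family factors, NRF1 and YY1, and 35 of the 55 (63.6%) held at least 1 of the 3 short motifs searched for them, on either strand, against 31.3% of 10983 tested genes with a window. The ETS core CCGGAAG stood in 32.7% of members and 16% of tested genes. The palindrome TGCGCA from the NRF1 site stood in 25.5% and 12.6%, and the YY1 core AAGATGG in 27.3% and 8.03%. The motif AGAACA from the site of the glucocorticoid receptor, the receptor that betamethasone binds, stood in 18.2% and 13.9%. An exact form of that receptor's full site, in which AGAACA is paired with TGTTCT, stood in 0 of 55 members and 0% of tested genes. It stood in 0.00728% of all 27457 genes with a window, so its absence from the members carries no information. The TATA box TATAAA stood in 14.5% and 8.69%, and the CCAAT box in 47.3% and 38.4%. Over all 27457 genes with a window, tested or not, AGAACA stood in 21.6% and TATAAA in 15.3%, both above the members' shares. The CCAAT box stood in 39.6% of these genes, the ETS core in 9.63%, TGCGCA in 7.96% and the YY1 core in 7.77%, all below the members' shares. Mrps7 held the YY1 core, after its start, and none of the other 8 motifs. That core includes the letters ATG of a start codon, and matches before and after a gene's start were not told apart. The stretch around the start of Mrps7, 60 bases before and 30 after, is shown with that motif in capitals.
Mrps7, chr10:101342582-101342671 on GRCr8, plus strand: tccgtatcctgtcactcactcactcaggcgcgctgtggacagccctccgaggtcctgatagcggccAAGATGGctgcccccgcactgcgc
A match is a description of these letters and not of a bound site. The window of Mrps7 overlaps that of Gga3, read the other way, whose log2 change after betamethasone was -0.32 (SE 0.24, adjusted p = 0.651, limma), with groups that overlapped; it was looked at after the values of Mrps7 were seen.

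Other genes of mitochondrial translation, from lists of 61 genes of which 57 were tested, gave no call in any comparison. After betamethasone 35 of the 57 were higher and 22 lower, with a median of 0.02 (61.4% higher, against 56% of all genes), and 4 had an unadjusted p under 0.05, where 11.6% of all genes did. Against control the betamethasone-ketamine group had 36 higher and 21 lower (63.2%, against 63.8% of all genes) with 12 under that p, where 14.1% of all genes were. Against betamethasone it had 33 higher and 24 lower (57.9%, against 62.8%) with 1 under that p, where 3.23% of all genes were. Gadd45gip1, a large subunit protein under another name, was 0.45 higher after betamethasone (SE 0.10, adjusted p = 0.118) and 0.39 higher in the betamethasone-ketamine group (SE 0.10, adjusted p = 0.188), without overlap with control in either. Mtfmt, which formylates the initiator methionyl-tRNA, was 0.30 higher (adjusted p = 0.241) and 0.34 higher (adjusted p = 0.208), also without overlap. Malsu1, an assembly factor of the large subunit, was lower after ketamine than after betamethasone alone (log2 change -0.31, SE 0.12, adjusted p = 0.906), without overlap, and its change in the betamethasone-ketamine group against control was -0.38 (adjusted p = 0.255). Ddx28, a helicase of ribosome assembly, was 0.35 higher after betamethasone (adjusted p = 0.396). After ketamine Vars2, the mitochondrial valyl-tRNA synthetase, was at -1.01 and Oxa1l, the inner membrane insertase, at 0.33, both with overlap. The SD of Vars2 was 1.07 in betamethasone-ketamine samples and 0.12 in betamethasone samples. Its change was -1.93 without the array of betamethasone-ketamine replicates 1 and 2 and -0.09 without the other. Of 4 ribosomal protein genes outside these lists that the name rule misses for their spelling or another name, none passed the test in any comparison. Their changes after betamethasone ran from -0.0081 (mrpl24) to 0.21 (mrpl9, adjusted p = 0.414).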

How the data were processed

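Prefrontal cortex RNA of 12 rats was measured on 6 Agilent 2-colour arrays. The deposited scanner intensity values came from Agilent Feature Extraction (11.5.1.1 on the control slide, 11.0.1.1 on the other, per the file headers; 10.7.3.1 per the submitters' processing notes). The deposited value table held a ratio of net spot signal to the column median, as read from its values; its columns for control replicates 1 and 2 match the scanner values of replicates 3 and 4 and the reverse.

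Mean foreground and median local background were corrected with normexp (offset 50), then loess within arrays and Aquantile between arrays were applied in limma 3.58.1 (R 4.3.3, statmod 1.5.0). Each channel was treated as a sample. Spots of a probe were averaged. Probes were kept if 3 or more of the 4 samples in any group were well above background and every group had at least 3 values. The brightest kept probe stood for its gene. The limma fit over all 12 samples had group and dye as terms and array as a random block (correlation 0.5627), with Benjamini-Hochberg adjustment over 18688 genes. The steps were tested on simulated data.

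Members and lists were chosen with earlier results of these data known. Named members are those past an adjusted p of 0.05, the 10 with the smallest p in each comparison and those whose probes differ most; of other pathway genes, the 3 with the smallest p. The limits of damaged areas were set after the files were seen. Alternatives covered signal, scaling, filter, probe rule, blocks, dye and left-out samples or arrays. Promoter windows came from RefSeq (GRCr8); probe positions are on rn4.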

Additional observations from a re-analysis of the deposited data

Results flagged for a closer look

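Mrps30 had, in the control group, a sample far from the others. Control replicate 2 read 12.52 on the normalised log2 scale, while the other 3 control samples lay between 12.19 and 12.22. This was 1 of 66 groups examined over 22 named members (1.52%), and chance sets a sample apart in about 1 in 20 groups.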

How the results depend on the processing

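With 4 animals on 2 arrays in each group, the number of arrays limits the precision, and slide cannot be told apart from group against control. The cause of each shift below was not tested, except where fewer samples enter by construction. The count of members called after betamethasone was 0 with Feature Extraction's processed signals, with arrays centred on median A, with 75th percentile scaling, with array means as replicates and with the re-centred value table, an alternative chosen after seeing the data. Without the array block it was 9, and 6 in the betamethasone-ketamine group against control, beside 979 and 777 of all 18688 genes. Leaving out 1 sample gave 0 to 1 calls in each comparison with control, medians of 0.0124 to 0.0536 after betamethasone, and medians of 0.0537 to 0.1114 for betamethasone-ketamine against control. Leaving out an array left its group on 1 array, so those fits hold no spread between arrays for that group. Without the array of control replicates 1 and 2, calls against control were 4 (median 0.0853) and 2, beside 289 and 228 of all genes. Mrpl52, which read high in control replicates 3 and 4, was called in both. Without the array of control replicates 3 and 4, calls against control were 2 and 2, beside 363 and 404 of all genes. The betamethasone median then turned to -0.0102, with 47.8% of members higher, against 55.9% of all genes. Without the array of betamethasone replicates 1 and 2 the betamethasone count was 0, and without that of replicates 3 and 4 it was 0, with a median of 0.0785. Without the array of betamethasone-ketamine replicates 1 and 2 the betamethasone count was 4, beside 493 of all genes. The median of betamethasone-ketamine against control was then 0.022. Without the array of betamethasone-ketamine replicates 3 and 4 the counts were 3, 14 (median 0.15) and, against betamethasone, 8 (median 0.0882). Over all genes they were 414, 3102 and 2294. With damaged areas masked, or with no filter on dim probes, 1 member, Mrps7, was called in betamethasone-ketamine against control. Over all genes, 24 of 17436 and 39 of 25999 were called then. Outside the value table, calls over all genes ran from 0 to 979 after betamethasone, 0 to 3102 for betamethasone-ketamine against control and 0 to 2294 against betamethasone, the last 2 without the array of betamethasone-ketamine replicates 3 and 4.

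With arrays centred on median A the 3 medians were 0.34, -0.0504 and -0.40, in the order betamethasone against control, betamethasone-ketamine against control, and betamethasone-ketamine against betamethasone. In that setting Mrpl10 was 0.23 after betamethasone. After ketamine Mrps31 was then -0.17, Mrps15 -0.25, Mrps30 -0.31, Mrpl50 -0.0903 and Oxa1l -0.22. With 75th percentile scaling Ddx28 was -0.0122 after betamethasone. With processed signals Mrpl17 was 0.065 in betamethasone-ketamine against control and 0.0413 against betamethasone. Without the array of control replicates 1 and 2 Mrpl17 was 0.0516 in betamethasone-ketamine against control. Without the array of betamethasone-ketamine replicates 1 and 2, the values after ketamine were 0.0001 for Mrps36, 0.13 for Mrpl10, -0.0221 for Mrpl50 and 0.0476 for Mrpl17. The re-centred table gave a median of 0.018 for betamethasone-ketamine against control.

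In the deposited value table centred on column medians, nearly all genes lay below control, with medians over all genes of -1.108 and -1.03. There 63 and 62 of 66 members were called, with medians of -1.09 and -1.03, beside 13503 and 13313 of 14119 genes. After betamethasone it gave -0.61 for Mrpl53, -0.73 for Mrpl23, -0.31 for Mrps7, -0.64 for Mrpl51, -0.62 for Mrpl16, -0.68 for Mrpl12, -0.75 for Mrps5, -0.74 for Mrpl49, -0.67 for Mrpl37, -0.70 for Ddx28, -0.65 for Gadd45gip1 and -0.86 for Mtfmt. In betamethasone-ketamine against control it gave -0.96 for Mrpl53, -0.69 for Mrpl23, -0.67 for Mrps11, -0.37 for Mrps7, -0.71 for Mrpl51, -0.46 for Mrpl16, -0.78 for Mrpl49, -0.74 for Mrpl37, -0.20 for Mrpl15, -0.73 for Gadd45gip1 and -0.76 for Mtfmt.

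Samples with the same replicate number correlated between -0.059 and 0.096 after group means were removed, so the numbers were not taken as pairs. 5 of 12 samples correlated best with a sample of their own number. With the replicate block in place of dye, 28, 14 and 0 genes were called in the 3 comparisons, and 1, 0 and 0 members; Mrps7 had an adjusted p of 0.0461 (limma).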
